A study of Homo sapiens with 6 samples.

Results

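The genes described here are 9 that encode enzymes of the tricarboxylic acid (TCA) cycle, namely CS, IDH3A, IDH3B, IDH3G, OGDH, SUCLG1, SDHA, FH and MDH2. They were found by joining the transcript identifiers of the deposited counts to GENCODE gene symbols. Of 42371 transcripts listed for each library, 37168 were found in the annotation on GRCh38, and they belong to 37024 genes. All 9 genes were among them, each with 1 counted transcript. The rule that defines the set uses their names and no measured level.

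The libraries came from K562, a human chronic myelogenous leukaemia cell line that received no treatment, and per the methods all cells grew in the same flask. RNA polymerases engaged on the template were measured by PRO-seq (2 libraries), which sequences nascent RNA, and steady-state RNA by total RNA-seq after depletion of ribosomal RNA (4 libraries). The study asks how far RNA levels follow transcription, and takes their ratio as a relative half-life. The spread between libraries therefore holds no difference between cultures, and p-values measure only the spread between these libraries. The paper's main estimates came from other, published PRO-seq and poly-A+ RNA-seq data. Per the paper, half-lives from those data were less variable and closer to published estimates than those from the libraries described here.

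The TCA cycle oxidises acetyl-CoA in the mitochondrial matrix and passes the electrons to the respiratory chain as NADH and reduced flavin. Its enzymes are encoded in the nucleus, translated in the cytosol and imported into mitochondria, and several of its intermediates feed the synthesis of lipids, haem and amino acids. Some steps are carried out by single-gene enzymes such as fumarase, and others by complexes whose subunits come from separate genes, such as the NAD-dependent isocitrate dehydrogenase.

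Short stretches of the promoters of these genes are shown first, because they hold the letters of motifs known from promoters and lie at the annotated starts of these genes. RefSeq promoters (GRCh38.p14, from 250 bases before to 50 after the start) were matched for 8 of the 9 genes, all but OGDH. Motifs were searched on both strands, and the windows below run 5′ to 3′ on the gene's strand, with the motif in capitals and 8 bases on each side. The NRF1 motif (GCGC, any base, TGCGC), bound by a factor known for driving nuclear genes of mitochondria, was found in 3 of the 8 promoters, against 7.51% of 20615 promoters of protein-coding genes.
IDH3A, chr15:78149344-78149369, plus strand: tggggtggGCGCTTGCGCactgccgc
IDH3G, chrX:153794420-153794445, minus strand: gcgaccgcGCGCGTGCGCagtaccgg
SDHA, chr5:218146-218171, plus strand, motif on the opposite strand: tccgctttGCGCAGGCGCggcgcccc
SDHA, chr5:218195-218220, plus strand, motif on the opposite strand: ggcatggtGCGCAGGCGCgatgtccc
SDHA, chr5:218244-218269, plus strand, motif on the opposite strand: ggcgtggtGCGCAGGCGCggtatccc
SDHA, chr5:218293-218318, plus strand, motif on the opposite strand: ggtgtggtGCGCAGGCGCagtctgcg

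The SDHA promoter held 4 of these matches, the first bases of which lay at -166, -117, -68 and -19 from the start. The core of the ETS motif (CCGGAAG) was also in 3 of the 8 promoters, among them that of MDH2, the member with the most PRO-seq signal per length counted, against 13.1% of protein-coding promoters. The CCAAT box (CCAAT) was in 4 of the 8 (FH, SUCLG1, CS and IDH3G), against 34.5%. It is shown for FH, the member with the most RNA, and no link of a motif to a level was tested. Neither the YY1 motif (AAGATGG followed by CGGC) nor the E-box (CACGTG) was in any of the 8, against 1.22% and 8.41% of protein-coding promoters.
MDH2, chr7:76047985-76048007, plus strand, ETS: tccgactcCCGGAAGtggccgtg
MDH2, chr7:76048029-76048051, plus strand, ETS: gagcgcgaCCGGAAGtccggtca
IDH3B, chr20:2664242-2664264, minus strand, ETS: agtacaggCCGGAAGtcggggta
IDH3G, chrX:153794453-153794475, minus strand, ETS: tctaggcgCCGGAAGggggcgtg
FH, chr1:241519848-241519868, minus strand, CCAAT box on the opposite strand: cattcacgATTGGtcctgccc
FH, chr1:241519812-241519832, minus strand, CCAAT box on the opposite strand: ggctgttgATTGGataagagc

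A match states only that the letters are there, and binding was not measured. The IDH3A promoter in RefSeq is that of its coding transcript, whereas the transcript counted for IDH3A starts 17864 bases further upstream. That counted for IDH3G starts 137 bases upstream of the start used for its promoter, so the IDH3G windows shown lie within its first exon. The counted transcripts of CS, MDH2 and IDH3B also start upstream, by 61, 21 and 3 bases.

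Levels are given as TPM, counts divided by the length they were counted over and scaled to the same total in each library. That length is the exons for RNA-seq and the transcription unit (TU) less 1000 bp for PRO-seq. A TPM can thus be compared between genes within an assay. Counts on TUs ranged from 5732780 to 9002746 in the RNA-seq libraries and were 6993816 and 7245632 in the PRO-seq libraries. The RNA-seq libraries formed close pairs, 1 with 3 and 2 with 4, whose counts differed by little more than sampling noise (chi-square per degree of freedom 1.11 and 1.12, against 1.71 to 2.10 for the other pairs and 1.61 for PRO-seq). The markers of the cell line GATA1, TAL1, HBG1, HBG2 and HBE1 had RNA-seq counts, from 79.7 TPM for TAL1 to 6289 TPM for HBG2, and CD3E, MS4A1, ALB and COL1A1, of other cell types, stayed at or below 0.483 TPM. EPCAM, an epithelial marker, was at 120 TPM.

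Among the 8 genes with PRO-seq counts, steady-state RNA spanned 20.4-fold, from 35.9 TPM for IDH3A to 732 TPM for FH, and engaged polymerase 9.19-fold. Their medians were 170 TPM in RNA-seq and 80.6 TPM in PRO-seq. SDHA, which was listed at 0 in PRO-seq, was lower still in RNA-seq at 22.4 TPM, but at 71.2 TPM over the exon bases it shares with no other row. The medians of the 8755 mRNAs above the study's thresholds (PRO-seq above 10 TPM, RNA-seq above 1 TPM) were 31.1 and 48.7 TPM. Because the cells were measured in bulk, a lower level from fewer expressing cells and one from less RNA per cell cannot be told apart.

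The cycle starts with CS, citrate synthase, which joins acetyl-CoA to oxaloacetate. CS was at 98.0, 100.8, 97.2 and 104.3 TPM in RNA-seq libraries 1 to 4, and at 84.2 and 98.6 TPM in the PRO-seq libraries. The 4 RNA-seq values lay close together, and PRO-seq differed more between its libraries. Among all protein-coding genes, expressed or not, its RNA level was above 90.8% and its PRO-seq level above 89.5%.

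The NAD-dependent isocitrate dehydrogenase oxidises isocitrate to 2-oxoglutarate, with IDH3A as the catalytic subunit and IDH3B and IDH3G as its partners. IDH3B was at 409, 417, 408 and 445 TPM in RNA-seq, and IDH3G at 36.5, 35.7, 39.4 and 36.5 TPM. Every IDH3B value was thus above every IDH3G value, from 10.4- to 12.2-fold within a library. In PRO-seq IDH3B was at 71.2 and 104.3 TPM and IDH3G at 73.2 and 71.5 TPM, so that the order of the pair differed between the libraries (0.972- and 1.46-fold). The log2 ratio of IDH3B to IDH3G was higher in RNA-seq than in PRO-seq in all library combinations, and the means of the 2 assays differed by 3.25. An exact two-sided permutation test over the 6 libraries gave p = 0.133, the smallest value that 4 against 2 libraries allow. The pair was not set in advance and the RNA-seq libraries formed close pairs, so this p-value adds no independent support.

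IDH3A was at 39.96, 37.01, 36.8 and 28.5 TPM in RNA-seq and at 20.5 and 18.0 TPM in PRO-seq, the lowest PRO-seq level of the 8 genes with counts. Library 4 was the lowest in RNA-seq, with 49 counts on the gene. These values belong to a transcript that GENCODE types as protein-coding with no coding sequence defined. It has 4 exons of 573 bases in all, at chr15:78131498-78157579 on the plus strand, and covers 32 of the 4083 exon bases (0.784%) of the canonical mRNA. The RNA-seq counts of IDH3A therefore describe this transcript's exons and hardly touch the coding mRNA, and 30.8% of its PRO-seq interval lies within the canonical TU.

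The 2-oxoglutarate dehydrogenase complex is represented by OGDH, its first component, which yields succinyl-CoA together with DLST and DLD. OGDH was at 55.5, 52.1, 54.997 and 54.2 TPM in RNA-seq and 44.8 and 45.6 TPM in PRO-seq. It is the longest of the 9 TUs, 102.44 kb at chr7:44606627-44709066 with 23 exons, and gave 2325 PRO-seq counts. Both assays placed it below CS, in 4 of 4 RNA-seq and 2 of 2 PRO-seq libraries.

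SUCLG1 encodes the alpha subunit of succinyl-CoA ligase, which makes GTP or ATP from succinyl-CoA according to its beta partner, SUCLG2 or SUCLA2. It was at 351, 367, 360 and 351 TPM in RNA-seq and at 72.5 and 74.0 TPM in PRO-seq. All 4 RNA-seq values lay above the 252 TPM that was the highest value of MDH2, a gene with a higher PRO-seq level in both libraries. FH, fumarase, hydrates fumarate to malate, and was at 741, 720, 734 and 733 TPM in RNA-seq and 96.4 and 92.0 TPM in PRO-seq. It was the most abundant member in every RNA-seq library.

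MDH2, the mitochondrial malate dehydrogenase, regenerates oxaloacetate and closes the cycle. It was at 252, 229, 243 and 237 TPM in RNA-seq and at 172 and 182 TPM in PRO-seq. MDH2 had the highest PRO-seq level in both libraries on whole lengths, though on unshared lengths CS matched it (179 and 178 TPM), while 3 members exceeded it in all 4 RNA-seq libraries. FH over MDH2 was 2.94- to 3.14-fold in RNA-seq and 0.505- to 0.561-fold in PRO-seq, a reversal of the order in every library (exact two-sided permutation test, p = 0.133, the smallest possible). This pair was not set in advance either, and the same limit holds for its p-value.

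SDHA, the flavoprotein of succinate dehydrogenase (complex II), is the member without a usable PRO-seq value. It was at 22.1, 22.9, 20.5 and 23.9 TPM in RNA-seq, from 821 counts in all, and was listed at 0 in both PRO-seq libraries. A total of 3 counts, the limit that a count of 0 allows for counting error alone, would be 0.157 TPM. The TU of SDHA (chr5:218320-257082, plus strand), and so its whole PRO-seq interval, lies inside another counted row on the same strand, a readthrough transcript of ENSG00000286001. Of the 2693 exon bases of SDHA, 1870 (69.4%) are shared with it. That row had 589 and 579 PRO-seq counts and 8, 13, 2 and 10 RNA-seq counts.

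Zero counts were usual for rows placed in this way. Of 614 protein-coding rows whose PRO-seq interval lay wholly inside another counted row on the same strand, 97.56% were at 0, compared with 22.02% of those inside rows of the opposite strand only and 9.882% of those that shared no base. The 0 of SDHA was therefore not read as a level of transcription, and no ratio was computed. Over the 823 exon bases that SDHA does not share, its RNA-seq level was 71.2 TPM, the counts being assigned to those bases alone. SDHA also has related loci, SDHAP1, SDHAP2 and SDHAP4, with 498, 418 and 138 RNA-seq counts, and which of its reads could be placed uniquely was not tested.

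**Figure D1:**
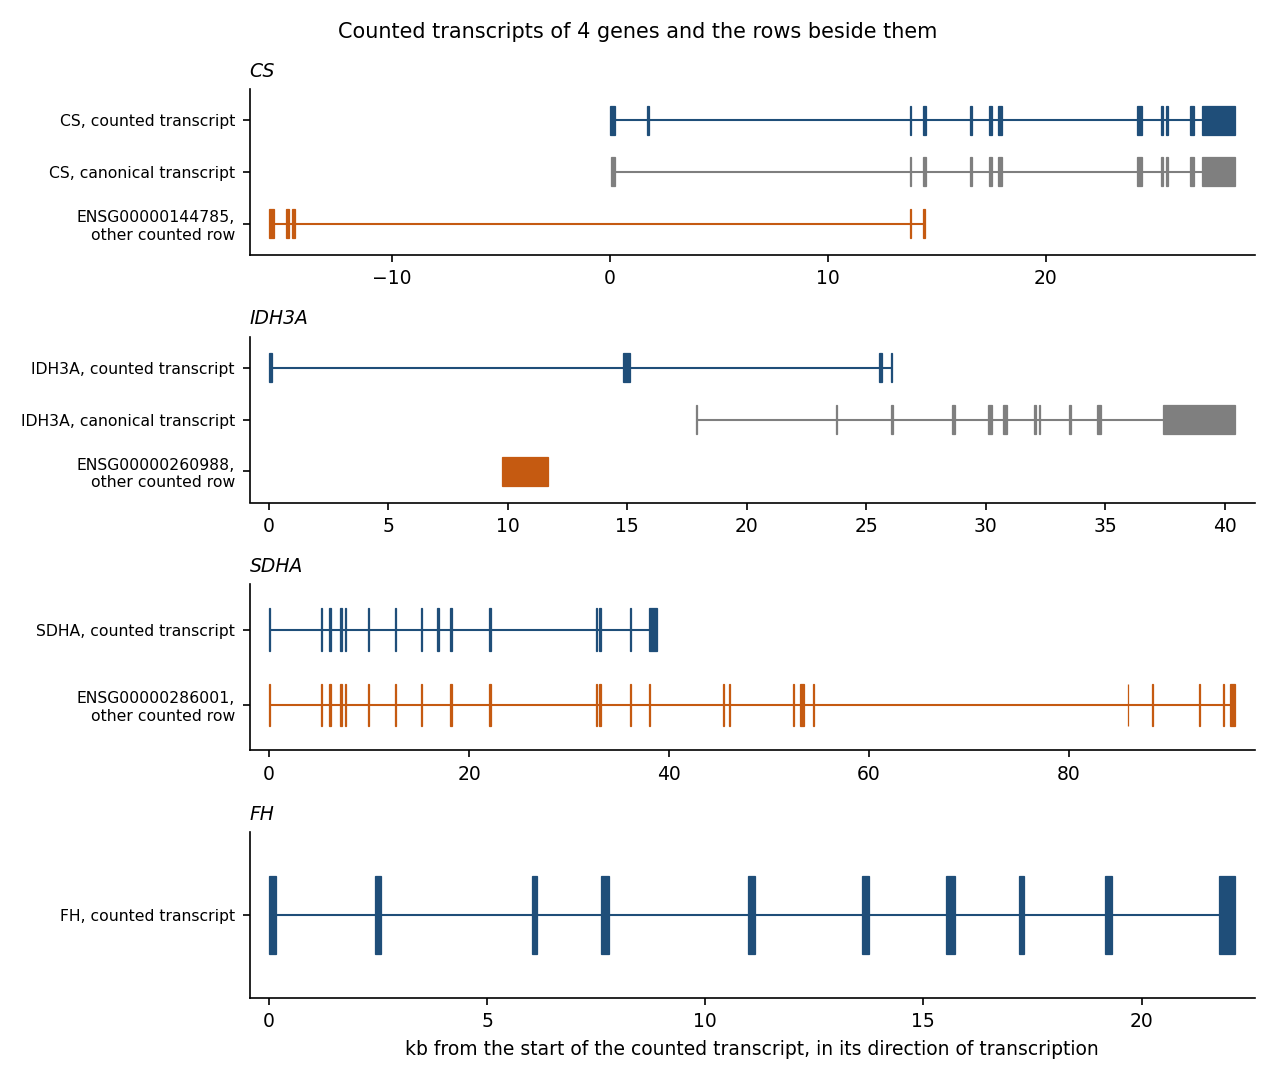
Exons (boxes) and introns (lines) of the counted transcripts of CS, IDH3A, SDHA and FH in kb from the start of the counted transcript, with the canonical transcript where another was counted (grey) and other counted rows on the same strand (orange). The counted IDH3A transcript touches 1 of the 11 canonical exons, SDHA lies wholly inside another row, 48.5% of the CS interval is shared, and FH stands alone.

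CS shares its TU in part. Its TU lies at chr12:56271701-56300391 on the minus strand, and its PRO-seq interval is that TU less 1000 bp. Of the 27691 bases of the interval, 13430 (48.5%) also lie in the row of ENSG00000144785. That row had 397 and 449 PRO-seq counts but 4 RNA-seq counts in all. Of the 3057 exon bases of CS, 113 are shared, and 28 more lie opposite CNPY2-AS1. The pseudogene CSP2 had no counts in any library. When lengths were restricted to bases that no other row on the same strand shares, CS was at 179 TPM in PRO-seq, against 91.5 on the whole length, and at 105 TPM in RNA-seq, against 100.1. All its counts were kept and assigned to those bases alone. Whether any of them came from the shared bases was not tested. For the remaining 7 genes the shared part of the PRO-seq interval was 3.71% (IDH3A) or none.

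IDH3G overlaps SSR4, which lies on the opposite strand and had 4407 RNA-seq counts, over 267 of its 1712 exon bases (15.6%). Whether the counting used strand is not stated in the methods or labels. Of protein-coding rows whose exons lay wholly inside those of another row, 181 of 186 were at 0 in RNA-seq on the same strand and 2 of 10 on the opposite strand only. The counted IDH3G transcript also carries 377 exon bases (22.02%) outside the canonical one. FH (chr1:241497603-241519755), SUCLG1 (chr2:84423528-84459280), both on the minus strand, and OGDH were counted on their canonical transcripts and shared no base with another row. IDH3B (chr20:2658395-2664219, minus strand) and MDH2 (chr7:76048085-76067506, plus strand) were counted on other coding transcripts that hold 79.6% and 92.1% of the canonical exon bases.

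Relative half-life was taken as RNA-seq TPM over PRO-seq TPM from summed counts and is given on the log2 scale with the median mRNA at 0. Per the paper, PRO-seq signal depends on elongation rate as well as transcription rate, so variation in this ratio could partly come from elongation. Elongation rate was not measured in these libraries, and its part in the values of the members was not tested. Of the 9 genes, 8 passed both thresholds. Their median was 1.34, or 1.11 without IDH3A and 2.02 without both IDH3A and CS, compared with -0.25 for all 10079 TUs past the thresholds. The middle 50% of mRNAs ran from -1.06 to 1.08.

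FH had the highest value, 3.63, which is a ratio 12.4-fold that of the median mRNA. Over the 8 ways of combining 1 library of each assay it ranged from 3.56 to 3.71, and it lay above 98.4% of mRNAs. SUCLG1 followed at 2.96 (2.93 to 2.998) and IDH3B at 2.93 (2.65 to 3.30). FH was above SUCLG1 in 8 of 8 combinations, but SUCLG1 was above IDH3B in 4 of 8, so these 2 were not ordered.

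IDH3A, as counted, stood at 1.57 (1.13 to 1.84) and MDH2 at 1.11 (1.02 to 1.23). OGDH was at 0.93 (0.88 to 0.98) and CS at 0.80 (0.66 to 0.96), and the former exceeded the latter in 6 of 8 combinations. IDH3G had the lowest value, -0.30 (-0.37 to -0.18), below the median mRNA in every combination and 15.3-fold below FH. All other neighbours in this order kept their places in 8 of 8 combinations.

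Each TU was tested against the median mRNA with the quasi-likelihood test of edgeR, with Benjamini-Hochberg adjustment over all 10079 TUs. At this depth 90.4% of all TUs and 90.3% of mRNAs differed from the median mRNA, so that a call alone says little. Of the 8 members 7 were above and 1 was below. Of mRNAs 45.3% were above and 45% below, and of all TUs 39.9% and 50.4%. The SE of the log2 ratio ranged from 0.0475 for FH to 0.142 for IDH3A. The adjusted p was 6.1e-33 for FH and 0.00897 for IDH3G, the weakest call.

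A second test asked for more than a 2-fold difference from the median mRNA, which 24.2% of mRNAs passed above and 23.2% below (21.2% and 29.8% of all TUs). FH, SUCLG1, IDH3B, IDH3A and MDH2 passed it above, and no member passed it below. The adjusted p of the 2-fold test in edgeR was 4.3e-30 for FH, 3.3e-26 for SUCLG1, 6.0e-19 for IDH3B, 7e-05 for IDH3A and 0.00896 for MDH2. OGDH, CS and IDH3G did not pass it (adjusted p = 1 for each).

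The calls of FH, SUCLG1 and IDH3B held in both tests under every alternative run. MDH2 lost its 2-fold call without PRO-seq library 1 (adjusted p = 0.0614) and with DESeq2 (0.521). IDH3A lost its 2-fold call with DESeq2 (0.189), and IDH3G its call without PRO-seq library 1 (0.076), with DESeq2 (0.214) and with a minimum of 10 summed counts in place of the TPM thresholds (0.118). With a minimum of 1 count IDH3G lay above the median mRNA, at 0.37. CS did not stay above the median mRNA: on unshared lengths its log2 ratio was -0.06 (edgeR adjusted p = 0.346), at the 48.5th percentile of mRNAs.

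**Figure D2:**
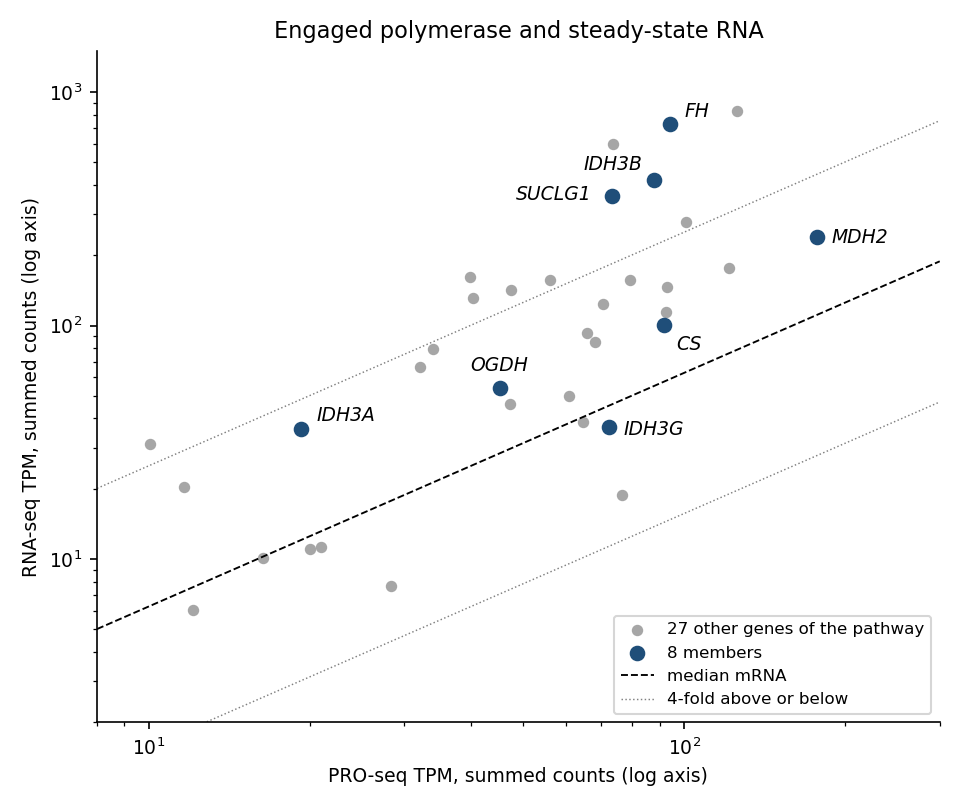
RNA-seq TPM against PRO-seq TPM, both on log axes, for 8 members (blue) and 27 other genes of the pathway (grey) past the thresholds, with the ratio of the median mRNA dashed and 4-fold above or below it dotted. FH, IDH3B, SUCLG1 and IDH3G lie between 72.3 and 94.2 TPM in PRO-seq but run from 36.8 to 732 TPM in RNA-seq. CS lies beside them at 91.5 TPM on its whole length, against 179 with all its counts assigned to unshared bases.

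The plot of RNA-seq against PRO-seq levels shows how the members differ among themselves. In the PRO-seq order FH, CS, IDH3B, SUCLG1 and IDH3G, each neighbouring pair changed places between the 2 libraries, although FH was above SUCLG1 and IDH3G in both. In RNA-seq these genes were ordered in 4 of 4 libraries. The only RNA-seq neighbours that were not ordered were IDH3G and IDH3A (2 of 4). FH over OGDH was 13.3- to 13.8-fold in RNA-seq and 2.02- to 2.15-fold in PRO-seq.

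Some features of the counted transcripts played no part in choosing the genes. The 9 counted transcripts held from 3.47 to 8.94 exon junctions per kb of exon, all above the 3.09 of the median mRNA past the thresholds. For IDH3A this rests on the 573-base transcript that was counted. Its canonical mRNA, with 11 exons in 4083 bases, holds fewer junctions per kb than the median mRNA. Of the counted transcripts that of IDH3B had the most junctions per kb, above 98.8% of mRNAs, with 11 introns in a 5.825 kb TU. IDH3G, with as many introns and 6.43 junctions per kb as counted, had the lowest ratio of the set, and FH, with 5.03, the highest. On canonical transcripts IDH3G, with 13 exons in 1335 bases, holds more junctions per kb than IDH3B, with 12 exons in 1542 bases. The TUs ranged from 5.825 kb (IDH3B) to 102.44 kb (OGDH).

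The other genes of the pathway were taken as a list of 37 in 4 groups, of which 27 passed the thresholds. In the edgeR test 19 of the 27 were above the median mRNA, 3 below, and 5 were not called, and 16 passed the 2-fold test above and 2 below. Of all mRNAs tested, 45.3% were called above and 45% below, and 24.2% and 23.2% passed the 2-fold test. These shares are also the background for the counts by group that follow. Their median log2 half-life was 1.32, beside 1.34 for the 8 members. Among the 23 whose counted transcript held at least 90% of the canonical exon bases and shared under 10% of its PRO-seq interval, 16 were above and 2 below.

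Core subunits, which build the enzymes of the cycle together with the members, numbered 7 past the thresholds, of which 6 were above the median mRNA and 4 passed the 2-fold test. SDHB, the iron-sulphur subunit of complex II, was at 3.39 (SE 0.0450), with 827 TPM in RNA-seq and 126 TPM in PRO-seq. SDHC, which anchors complex II in the membrane, was at 0.39 (SE 0.0702) and did not pass the 2-fold test. SDHD, the other anchor, had 2 PRO-seq counts, in an interval that shares 99.9% of its bases with another row, and was not tested.

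The beta subunits that pair with SUCLG1 lay at 1.90 (SUCLG2) and 2.30 (SUCLA2), and SUCLG1 itself at 2.96. Their counted transcripts held 51.4% and 67.4% of the canonical exon bases, and that of SUCLA2 is typed in GENCODE as nonsense-mediated decay. The partners of OGDH differed. DLST, the succinyltransferase, was at -0.07 (edgeR adjusted p = 0.385), and DLD, a subunit shared with pyruvate dehydrogenase, at 2.12. The counted DLD transcript, also typed as nonsense-mediated decay, holds 48.7% of the canonical exon bases.

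Of the 12 genes for the entry of pyruvate 6 were tested, 4 above and 1 below. PDHB, a subunit of the first component of pyruvate dehydrogenase, was the highest at 2.26, and PDK1, a kinase that inhibits that complex, the lowest at -1.21 (edgeR adjusted p = 2.2e-15). PDHA1 and MPC1 had no matched row. Of 13 isozymes and enzymes that feed or drain the cycle 11 were tested, 8 above and 2 below. MDH1, the cytosolic counterpart of MDH2, was the highest at 3.70, with 600 TPM in RNA-seq and 73.7 TPM in PRO-seq.

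MDH1 thus exceeded MDH2 in its ratio by more than the range over library combinations of either (3.57 to 3.82 and 1.02 to 1.23). PCK2, the mitochondrial PEP carboxykinase, was the lowest of these enzymes at -1.35, on a transcript with 9.32% of the canonical exon bases. Among 4 assembly factors of complex II 3 were tested, from SDHAF3 at 2.69, which was called above, to SDHAF4 at -0.23 (edgeR adjusted p = 0.154). SDHAF1, at 0.64 (0.14 to 1.29, SE 0.726), had only 3 PRO-seq counts, so its lack of a call says little.

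Measured by Euclidean distance over log2(TPM + 1) in all 6 libraries, the 3 protein-coding genes nearest to the median of the 9 members were TDG, NCBP1 and NSUN5, at 0.0452, 0.0863 and 0.141. That median counts SDHA as 0 in PRO-seq. For the median of the 8 other members the nearest genes were MARS1, PTTG1IP and NCAPG, at 0.105, 0.128 and 0.184. The 8 members themselves lay from 1.30 (CS) to 5.06 (IDH3A) from that median.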

How the data were processed

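The authors used Cutadapt for trimming, HISAT2 with default settings for alignment to GRCh38, and HTSeq for counting on GENCODE transcripts. For PRO-seq they omitted 500 bases at both ends of a TU. The deposited values are raw counts per transcript and library (per the labels, of the longest transcript), without normalization. Neither the methods nor the labels state tool versions, the strand setting or the annotation release.

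Rows naming no TU held 66.5% to 68.6% of RNA-seq records and 86.5% and 88.6% of PRO-seq records and were left out. Transcripts were joined by identifier to GENCODE (87.72% found), using the GRCh38 exon locations that the annotation records, so lengths may differ from those the authors counted on. The 85 TUs with no PRO-seq length left were dropped. TPM came from summed counts, over exon length or TU span minus 1000 bp.

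The test was edgeR 4.0.16 (R 4.3.3), quasi-likelihood with TMM, length offsets and Benjamini-Hochberg adjustment over 10079 TUs, centred on the median mRNA. DESeq2 1.42.0 and Python 3.11.15 were also used.

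The members, lists and motifs were chosen with earlier results of these data known. Named were all members, core subunits, the highest and lowest gene of each other group, the 3 nearest genes, and overlapping rows and pseudogenes; other genes named were chosen after their values were seen. Results for some listed genes are not reported here. Alternatives covered the count model, normalization, filters, removed length, pooling, pseudocount, CPM, mRNAs only, single libraries left out and the replicate block. Unshared lengths, summed close pairs, medians without IDH3A, CS or SDHA and the nearest genes without SDHA were added after seeing the data. Counts are of reads, which need not be independent molecules, so limits cover counting error only.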

Additional observations from a re-analysis of the deposited data

How the results depend on the processing

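The calls of both tests for FH, SUCLG1 and IDH3B kept their side of the threshold under every alternative. With no TPM thresholds but at least 1 summed count in each assay, 6660 TUs were above the median mRNA and 7844 below, against 4024 and 5084, and 4200 and 5235 in the 2-fold test, against 2141 and 2999. More TUs were tested and the median mRNA shifted there (FH moved from 3.63 to 4.30): IDH3G turned to 0.37, and CS (1.47) and OGDH (1.60) passed the 2-fold test. On lengths not shared with another row CS turned to -0.0596 in the edgeR fit and to -0.0623 as a ratio of TPM, and the median of the 8 members left was at 173 TPM in RNA-seq and 81.1 in PRO-seq. Without SDHA on whole lengths it was at 170 and 80.6, against 100.1 and 73.2 over all 9. With CPM in place of TPM, the log2 ratio turned to -0.35 for IDH3A, 1.05 for IDH3G and -0.14 for OGDH. With TPM over mRNAs only the median of all 9 was at 103.4 TPM in RNA-seq and 91.9 in PRO-seq, and with 500 bp removed at 86.4 in PRO-seq. The median log2 half-life was 1.11 without IDH3A and 2.02 without IDH3A and CS.

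With single libraries left out the median log2 half-life ranged from 1.29 to 1.39, and TUs above and below from 3879 to 4019 and from 4905 to 5063. A lone PRO-seq library was taken to vary as the RNA-seq libraries do. With the replicate number as a block 3934 TUs were above and 4975 below. The numbers did not pair the libraries (r = -0.00685 between the library 1 minus 2 differences of both assays, over 9986 TUs), and the block changed no call of a member. Nor did summing the close pairs of RNA-seq libraries (3979 above, 5045 below). Of the 8 members tested, IDH3B, IDH3A and IDH3G had the fewest PRO-seq counts, 215, 245 and 284, and IDH3A the fewest RNA-seq counts, 280.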
